A study of Mus musculus with 46 samples.

Results

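A group of 6 detoxification genes, of the 15964 genes annotated on the arrays, was followed in mouse lung: the carboxylesterases Ces1f, Ces1g and Ces1d and the export pumps Abcc1, Abcc3 and Abcc4. They were taken by gene symbol from the annotation of the array probe sets, and were selected on the genotype difference in earlier results of these data, where Ces1f and Ces1g were lower in the mutant from 0 h on. The symbols led to 11 probe sets, of which 10 passed the filter on dim signal and were tested. Lung RNA came from Nrf2 mutant mice and wild type mice at 0 h, without oxygen, and after 24, 48 and 72 h in 100% oxygen, which gave 8 groups on 46 arrays of 3 types, called A, B and C. Each group had 2 arrays of a type, numbered 1a and 1b. On type A only replicate 1b was present for 2 groups, mutant 0 h and wild type 24 h (n = 1). The labels name no allele, strain, sex or age. Nor do they tie 1a and 1b to animals, so p-values measure only the spread between these arrays. Because whole lung was measured, fewer cells of a type and less RNA per cell cannot be told apart.

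Carboxylesterases are serine hydrolases of the endoplasmic reticulum that split ester and amide bonds in drugs, inhaled esters and stored lipids. The Abcc pumps, also called multidrug resistance-associated proteins, use ATP to carry organic anions out of the cell, many of them conjugates of glutathione, glucuronic acid or sulfate. The transcription factor Nrf2, encoded by Nfe2l2, is released from Keap1 under oxidative stress and activates detoxification genes through antioxidant response elements. Genes of both families are known to respond to Nrf2 activators in mouse liver. In the GRCm38 gene order the Ces1 genes, Ces1a to Ces1h, are consecutive protein-coding neighbours on chromosome 8, and Ces1d, Ces1e, Ces1f and Ces1g stand in that order. Abcc1, Abcc3 and Abcc4 lie on chromosomes 16, 11 and 14. Close relatives can share probe sequence, so a signal of 1 Ces1 gene may hold RNA of its neighbours.

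The promoters show where the core of the antioxidant response element, TGACNNNGC on either strand, was looked for, and RefSeq sequence upstream of a start (GRCm38.p6) was at hand for Ces1g and Abcc4 among the members. The 250 bases upstream of each start are printed 5′ to 3′ on the gene's strand, with capitals marking a match. Ces1e, the neighbour of Ces1f, is added because it was the other Ces1 gene found lower in the mutant below. The Ces1g promoter lies at chr8:93337210-93337459, that of Ces1e at chr8:93229620-93229869, and those of Abcc4 at chr14:118706220-118706469 and chr14:118676932-118677181, all on the minus strand.
Ces1g: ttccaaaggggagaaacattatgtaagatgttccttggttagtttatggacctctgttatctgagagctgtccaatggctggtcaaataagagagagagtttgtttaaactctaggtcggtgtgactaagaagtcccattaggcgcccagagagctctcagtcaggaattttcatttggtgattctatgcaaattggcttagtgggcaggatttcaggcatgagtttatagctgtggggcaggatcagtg
Ces1e: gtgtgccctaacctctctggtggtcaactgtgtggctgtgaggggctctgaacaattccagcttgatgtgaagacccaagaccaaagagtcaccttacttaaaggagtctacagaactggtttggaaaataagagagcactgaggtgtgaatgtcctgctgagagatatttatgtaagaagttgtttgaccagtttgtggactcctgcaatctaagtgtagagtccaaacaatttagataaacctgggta
Abcc4, start 1: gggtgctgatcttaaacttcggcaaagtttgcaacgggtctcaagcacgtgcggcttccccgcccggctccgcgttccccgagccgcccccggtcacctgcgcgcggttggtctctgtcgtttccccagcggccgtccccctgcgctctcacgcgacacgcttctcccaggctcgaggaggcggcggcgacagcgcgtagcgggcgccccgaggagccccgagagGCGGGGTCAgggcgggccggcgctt
Abcc4, start 2: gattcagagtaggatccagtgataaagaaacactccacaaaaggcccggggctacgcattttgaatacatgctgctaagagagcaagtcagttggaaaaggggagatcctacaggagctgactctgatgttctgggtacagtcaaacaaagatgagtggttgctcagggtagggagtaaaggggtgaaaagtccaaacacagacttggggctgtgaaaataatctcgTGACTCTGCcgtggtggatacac
Both Abcc4 windows held a match. At start 1 it read GCGGGGTCA, the reverse strand form, beginning 25 bases upstream of the start, and at start 2 it read TGACTCTGC, beginning 23 bases upstream. Of 32851 mouse promoter windows of the same length, 3338 (10.2%) held the motif. The Ces1g and Ces1e windows held none, which says only that these letters are not in these windows.

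The label of the mutant was checked first on Nfe2l2 itself, which on type A ran from 303 to 448 in the mutant and from 2428 to 4488 in wild type, over 7 arrays each. The position of its probes beside the mutation is not given in the sources used here. Lung markers were present: of the alveolar type 2 markers on type A, 5 of 6 were above the filter value on every array, and all 3 club cell markers were. The mutant 0 h arrays, 5 in all, stood apart, with a mean correlation to the other arrays of their type of 0.827 to 0.858, against 0.879 to 0.940 for the other 41. The ratio of 3′ to 5′ Gapdh signal, a sign of RNA quality, was 1.67 to 2.26 on these 5 arrays and 0.858 to 1.54 on the other 41, without overlap. On type A the summed intensity of 7 of 10 squamous epithelium markers was 26608 on the mutant 0 h array, 1973 to 2814 on mutant oxygen arrays and 1762 to 2952 on wild type arrays. That of all 8 skeletal muscle markers was 33506, 2124 to 4659 and 2927 to 5845 in the same order, and that of 6 of 8 fat markers was 6808, 1781 to 3040 and 2016 to 4828. Of the squamous markers 1 of 7 was never above the filter value, and of the muscle and fat markers none. On types B and C, 2 and 4 squamous markers summed to 6398 to 7621 and 61255 to 72719 on the mutant 0 h arrays, against at most 2128 and 1417 on all others. The 5 muscle markers on type C, of which 2 were never above the filter value, overlapped, with 19881 to 25739 on the mutant 0 h arrays, 10865 to 15375 on mutant oxygen arrays and 8411 to 20033 on wild type arrays. The 1 fat marker on type B overlapped as well, with 514 to 555, 78.0 to 528 and 84.1 to 434 in the same order. Some of the lung marker sums differed on these arrays too. The 3 alveolar type 2 markers on type C summed to 91160 to 112144 on the mutant 0 h arrays, against at least 123628 on all others, and the endothelial and macrophage markers on type A, 7 of each list, to 12885 and 13658, against at least 15638 and 14939.8. The 2 club cell markers on type B summed to 5415 to 6059, against at most 4218. Other lung sums overlapped those of the other arrays. The 6 alveolar type 2 markers on type A summed to 67456.5, against 58212 to 104143 on mutant oxygen arrays and 58534 to 79529 in wild type. The 2 on type B summed to 11483 to 12038, against 9576 to 25051 and 10087 to 23610. The 3 club cell markers on type A summed to 52096, against 44122 to 71292.5 and 45426 to 63527. Every change from 0 h in the mutant below rests on the mutant 0 h arrays, as does every genotype difference at 0 h. Genotype differences averaged over the 4 times include them too. Under oxygen a marker sum separated the genotypes as well. The 8 neutrophil markers on type A summed to 19361.5 to 20699 in the mutant at 24 h, against 9094 in wild type (n = 1). At 48 h the sums were 3683 to 4052 and 18534.5 to 19377, and at 72 h 4864 to 5201 and 16713 to 17716. The 1 neutrophil marker on type C overlapped at each of these times. The part of these cell types and of RNA quality in the values below was not tested.

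Ces1f had every mutant array below every wild type array on both of its probe sets. This carboxylesterase is best known from liver, where it takes part in the turnover of stored lipid. Its probe set 109158_at on type B had intensities of 134 and 119.9 in the mutant at 0 h, 15.0 and 23.8 at 24 h, 70.4 and 15.1 at 48 h, and 39.3 and 23.5 at 72 h. In wild type it had 519 and 535 at 0 h, 908 and 853 at 24 h, 574 and 634 at 48 h, and 497 and 674 at 72 h. No mutant array reached the filter value of 272, the 40th percentile of type B, while all 8 wild type arrays lay above it. The second probe set, 109159_f_at, marked by its suffix as shared within a probe family, ran from 23.7 to 157 over the 8 mutant arrays and from 299 to 719.6 in wild type. Both Ces1f probe sets correlated over the 16 arrays (r = 0.95), but these arrays hold both genotypes. The gap between the genotypes, which led to the choice of Ces1f, makes a high r by itself. The fitted log2 differences of 109158_at, mutant minus wild type, were -1.37, -2.79, -2.13 and -2.17 at 0, 24, 48 and 72 h, each ± 0.19 (SE). For 109159_f_at they were -1.27, -2.32, -1.42 and -1.64, each ± 0.27. Of 9 markers of liver, the main site of Ces1 genes, on type A, 5 were never above the filter value, but Alb was on 12 of 14 arrays. The sum of the 9 was 671 to 1393 in the mutant, with 1246 to 1393 at 72 h, and 633 to 1203 in wild type. On type B, which holds the Ces1f probe sets, the 1 liver marker was never above the filter value. On type C, Apoh was above it on 9 of 16 arrays. The part of liver RNA in the Ces1f signal was not tested. The genotype differences belong to the choice of the genes and are given with no test. Because every mutant array of both probe sets lay under the filter value, their size depends on the value added before the logarithm, and they carry a direction but no dependable fold.

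Ces1g, an esterase of liver lipid metabolism, had 2 probe sets, which disagreed. On type A, 103519_at had an intensity of 37.2 in the mutant at 0 h (n = 1), 18.9 and 19.0 at 24 h, 45.3 and 22.0 at 48 h, and 53.9 and 13.7 at 72 h. The wild type values were 213 and 161 at 0 h, 288 at 24 h (n = 1), 277 and 289.6 at 48 h, and 164 and 176 at 72 h. Every mutant array was below every wild type array, but the filter value of type A is 195 and only 4 of the 7 wild type arrays passed it. The log2 differences were -1.20 and -1.92 at 0 and 24 h, each ± 0.25, and -1.70 and -1.17 at 48 and 72 h, each ± 0.20, and their size is as undependable as that of Ces1f. The bright probe set 164228_at on type B had 4716 to 6756 over the mutant arrays and 5802 to 8326 over those of wild type. There the genotypes overlapped at 0, 48 and 72 h, with log2 differences of -0.11, 0.01 and -0.22, and stood apart at 24 h, with 5718 and 4898 in the mutant, against 8051 and 8326 in wild type (log2 difference -0.62 ± 0.21). Over the 14 samples with both types, the 2 probe sets correlated at r = 0.40. The lower Ces1g signal from 0 h on is thus a feature of the dim probe set, and which of the 2 follows Ces1g RNA was not tested.

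Ces1d, a triacylglycerol hydrolase of liver and fat, was bright on type A in both genotypes. Probe set 101538_i_at had an intensity of 3365 in the mutant at 0 h (n = 1), 4516 and 5375 at 24 h, 3298 and 3501 at 48 h, and 2159 and 2334 at 72 h. Wild type arrays had 6125 and 6871 at 0 h, 9608 at 24 h (n = 1), 8421 and 8552 at 48 h, and 5537 and 6656 at 72 h. The 2 ranges do not meet: the highest mutant array, 5375, was at 24 h, and the lowest wild type array, 5537, at 72 h. Probe set 101539_f_at, of the probe family kind, gave 2827 to 5157 over the 7 mutant arrays and 6705 to 11242 over the 7 of wild type, again without overlap. Averaged over the 4 times the fitted level in the mutant was 2.21-fold lower on 101538_i_at (log2 difference -1.15 ± 0.09) and 2.13-fold lower on 101539_f_at (-1.09 ± 0.09). Over 24, 48 and 72 h alone, without the mutant 0 h array, the log2 differences were -1.22 ± 0.10 and -1.21 ± 0.10. On 101538_i_at the difference was -0.93, -0.95, -1.30 and -1.40 at 0, 24, 48 and 72 h. On 101539_f_at it was -0.71, -1.13, -1.19 and -1.33. As with Ces1f, this contrast served to choose the group of genes and is a description.

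The probe set of Ces1d on type C ran differently. Its name, 169079_i_at, marks an incomplete probe set, as does that of 101538_i_at. It had intensities of 2284 and 2166 in the mutant at 0 h, 4532 and 3823 at 24 h, 3977 and 5089 at 48 h, and 2065 and 2995 at 72 h. The wild type arrays gave 2203 and 2923 at 0 h, 2516 and 2874 at 24 h, 3401 and 2904 at 48 h, and 2807 and 1810.4 at 72 h. The mutant arrays were above the wild type arrays at 24 and 48 h (log2 difference 0.61 and 0.50, each ± 0.29), and the genotypes overlapped at 0 and 72 h. Over the 14 shared samples it correlated with the type A probe sets at r = -0.05 and -0.14, whereas those 2 correlated with each other at r = 0.98. The latter r includes the gap between the genotypes on type A, which belongs to the choice of the genes. Any statement about Ces1d therefore depends on the probe set.

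**Figure D1:**
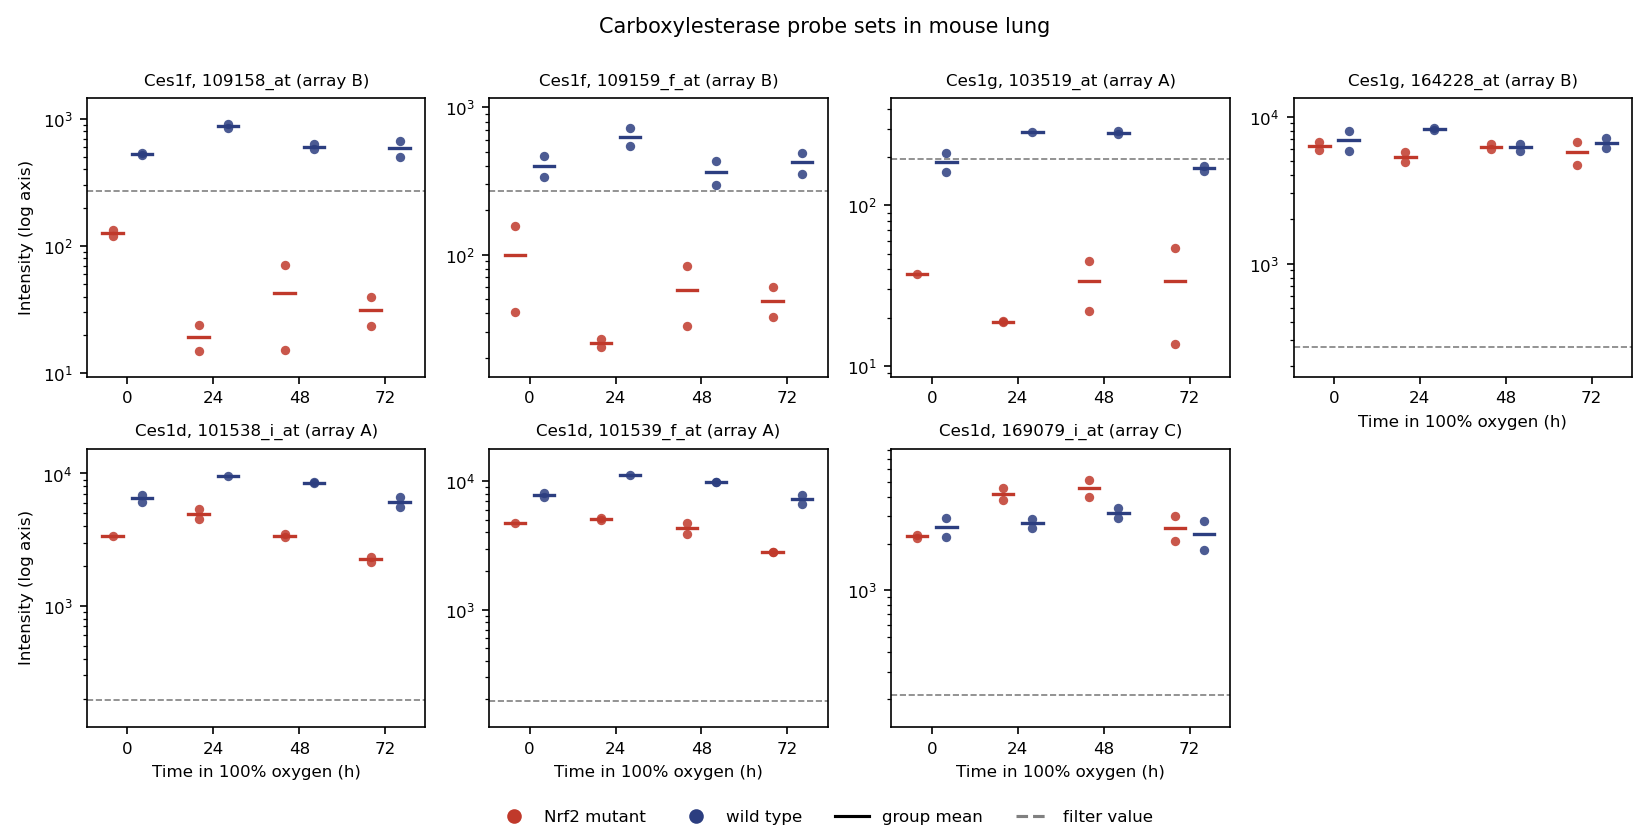
Intensity (log axis) of the 7 carboxylesterase probe sets by time in 100% oxygen. Each point is 1 array, Nrf2 mutant left and wild type right at each time, with short lines at group means and a dashed line at the filter value. Ces1f stays under 272 on every mutant array and the Ces1d probe sets of type A separate the genotypes, whereas for Ces1g on type B and Ces1d on type C the ranges of the genotypes overlap.

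Of the pumps, Abcc3 varied most. It exports glucuronides and bile acids across the basolateral membrane. Its probe set 103689_at on type A had an intensity of 249.8 in the mutant at 0 h (n = 1), 1633 and 2217 at 24 h, 1837 and 1226 at 48 h, and 1272 and 2154 at 72 h. Intensities in wild type were 1482 and 1160.1 at 0 h, 2195 at 24 h (n = 1), 3317 and 2629 at 48 h, and 2658 and 2273 at 72 h. The single mutant 0 h array was the lowest of all 14. The mutant arrays lay below those of wild type at 0, 48 and 72 h, with log2 differences of -2.08 ± 0.35, -0.94 ± 0.28 and -0.55 ± 0.28, and overlapped them at 24 h (-0.20 ± 0.35). Over 24, 48 and 72 h alone, the mean difference was -0.56 ± 0.18, against -0.94 ± 0.16 over all 4 times.

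Abcc4 exports cyclic nucleotides and prostaglandins. On 111137_at of type B its intensity was 329 and 310.1 in the mutant at 0 h, 647 and 526 at 24 h, 826 and 668 at 48 h, and 618 and 398 at 72 h. Wild type lungs had 413 and 662 at 0 h, 818 and 732 at 24 h, 925 and 860.2 at 48 h, and 703 and 541 at 72 h. Mutant arrays lay below wild type arrays of the same time except at 72 h, where they overlapped. The log2 differences were small, -0.55, -0.34, -0.23 and -0.25 in the order of time, each ± 0.23.

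Abcc1 carries glutathione conjugates and leukotriene C4. On 117110_at of type B its intensity was 656 and 536 in the mutant at 0 h, 1129 and 735 at 24 h, 823 and 578 at 48 h, and 1078 and 722 at 72 h. Wild type values were 550.5 and 716 at 0 h, 962 and 855 at 24 h, 1104 and 798 at 48 h, and 1416 and 1139.8 at 72 h. The genotypes overlapped at 0, 24 and 48 h, and at 72 h both mutant arrays were below both wild type arrays (log2 difference -0.47 ± 0.26). The second Abcc1 probe set, 99329_at on type A, lay between 62.3 and 171 on all 14 arrays, below the filter value throughout, and was not tested.

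**Figure D2:**
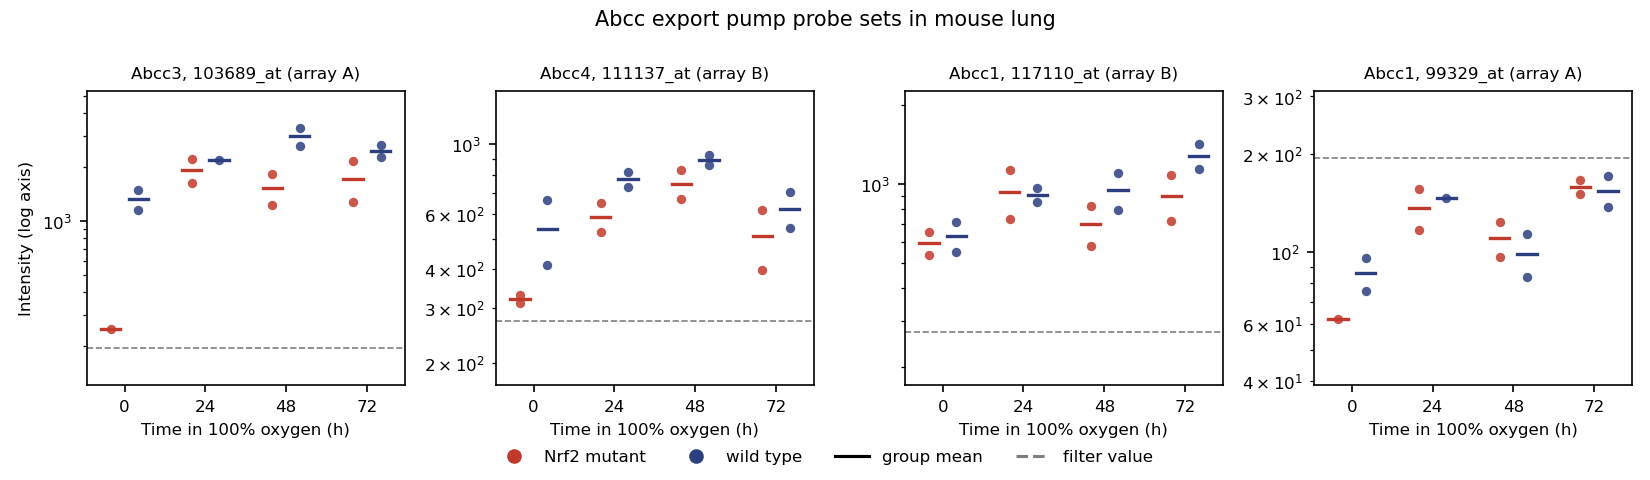
Intensity (log axis) of the 4 Abcc probe sets by time in 100% oxygen, 1 point per array, Nrf2 mutant left and wild type right, with group means and the filter value. The single mutant 0 h array of Abcc3 (249.8) lies below the other 13, and 99329_at of Abcc1 stays below its filter value.

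Across the 10 tested probe sets, 5 had every mutant array below every wild type array of their type: both of Ces1f, the dim one of Ces1g and the 2 of Ces1d on type A. The 3 of Ces1f and Ces1g passed the filter only through wild type arrays. Of all 26833 tested probe sets 48 did so, or 0.179%, a share set beside the members only as background because this contrast chose them. At 0 h alone 7 of 10 were lower in the mutant without overlap (29.7% of all probe sets), as were 7 at 24 h (25.6%), 7 at 48 h (21.4%) and 7 at 72 h (19.5%). The median log2 difference of the 10 was -0.82, -0.78, -1.07 and -0.86 at 0, 24, 48 and 72 h, beside medians of -0.04, -0.01, -0.01 and -0.01 over all probe sets. Without the 3 that passed the filter only through wild type, the median of the other 7 was -0.55, -0.34, -0.38 and -0.47. Over the 6 on types B and C, where every group has 2 arrays, it was -0.37, -0.48, -0.31 and -0.36. Among the pumps, Abcc1 and Abcc4 differed by -0.23 ± 0.13 and -0.34 ± 0.11 averaged over the 4 times.

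**Figure D3:**
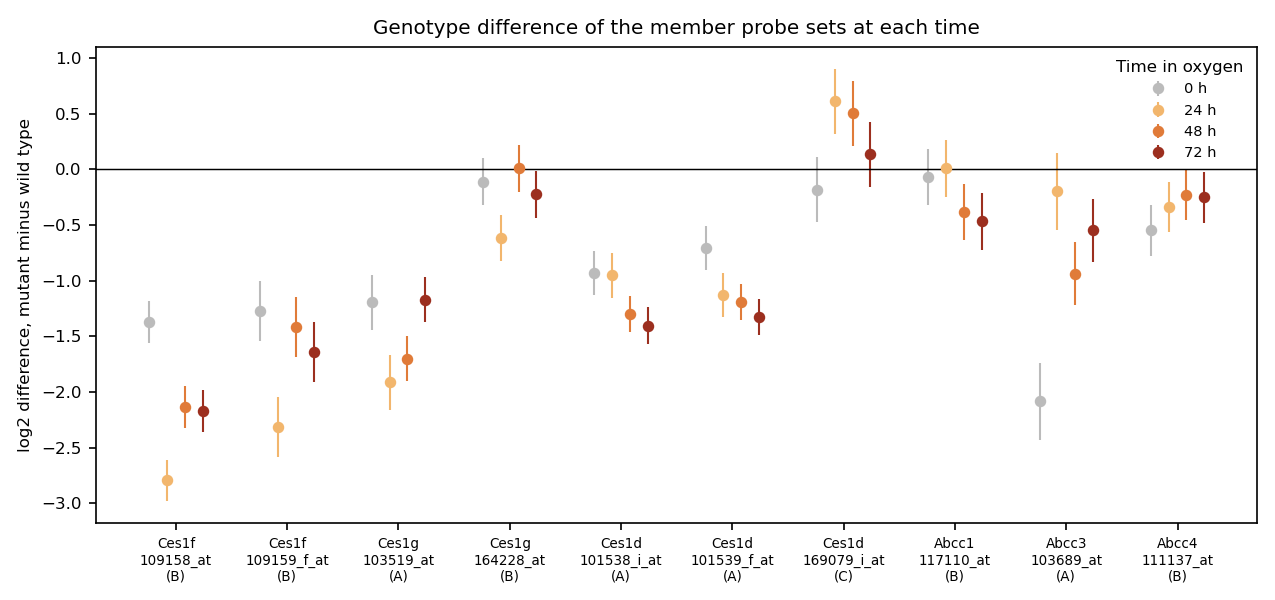
Fitted log2 difference, mutant minus wild type, of the 10 tested probe sets at each time (points, with bars of 1 SE). Ces1f is lowest at 24 h (-2.79 on 109158_at), from mutant arrays under the filter value, so that its size is not dependable. The Ces1d probe sets of type A lie near -1, and Abcc3 is lowest at 0 h (-2.08), where the mutant has 1 array.

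The order of the groups differed between probe sets, also within a gene. For Ces1f on 109158_at the mean was highest in wild type at 24 h (881 ± 38.7, SD, n = 2) and lowest in the mutant at 24 h (19.4 ± 6.21, n = 2). Wild type at 48, 72 and 0 h followed the highest group in that order and overlapped as neighbours, with a gap down to the mutant at 0 h, and the other 3 mutant groups overlapped as neighbours. Ces1d on 101538_i_at ran from wild type at 24 h, 48 h, 0 h and 72 h to the mutant at 24 h, 48 h, 0 h and 72 h, with overlap only between wild type at 0 and 72 h and between the mutant at 48 and 0 h. On type C, Ces1d was instead highest in the mutant at 48 and 24 h and lowest in the mutant at 0 h. For Abcc3 and Abcc4 the highest mean was that of wild type at 48 h (2973 ± 487 and 893 ± 46.0, n = 2 each) and the lowest that of the mutant at 0 h. Abcc3 overlapped between wild type at 48 and 72 h, and again between neighbours from wild type at 24 h down to wild type at 0 h, the mutant oxygen groups included. The Abcc4 groups between both ends overlapped as neighbours too. For Abcc1 wild type at 72 h was highest (1278 ± 196, n = 2) and the other 7 groups overlapped as neighbours, as did 7 of the 8 groups of Ces1g on type B below wild type at 24 h (8188 ± 194, n = 2).

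The response to oxygen was tested in each genotype against 0 h with limma, adjusting over all 26833 probe sets. These changes share their arrays with the genotype differences that chose the genes, at 0 h included, and so are not independent of the choice. All 6 mutant oxygen arrays of Abcc3 were above the single mutant 0 h array. The fitted log2 change ± SE was 2.60 ± 0.35 at 24 h (adjusted p = 0.000623), 2.27 ± 0.35 at 48 h (adjusted p = 0.00189) and 2.40 ± 0.35 at 72 h (adjusted p = 0.000886), or 6.05-, 4.82- and 5.29-fold. The SE and p-values assume that the lone 0 h array, one of those that stood apart, varies like the arrays of other groups, and none of the 3 changes has a value without it. In wild type Abcc3 rose at 48 h by log2 1.12 ± 0.28, 2.18-fold (adjusted p = 0.0413), and had changes of 0.71 at 24 h (adjusted p = 0.380) and 0.87 at 72 h (adjusted p = 0.0975). The wild type call at 48 h was lost in 3 of 7 alternatives and in 8 of 16 fits that left out a replicate, with an adjusted p up to 0.231 without replicate 1a of wild type at 48 h. All 5 wild type oxygen arrays of Abcc3 were above both wild type 0 h arrays.

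Abcc4 also rose in the mutant, by log2 0.67 ± 0.23 at 24 h (adjusted p = 0.0463) and 0.97 ± 0.23 at 48 h, 1.95-fold (adjusted p = 0.0117). At 72 h its change was 0.49 ± 0.23 (adjusted p = 0.152). The 24 h call was lost in 2 of 7 alternatives. Leaving out a replicate ended the 24 h call in 12 of 16 fits and the 48 h call in 2 of 16, with an adjusted p up to 0.217 without replicate 1a of the mutant at 24 h and 0.0899 without replicate 1a at 48 h. In wild type Abcc4 had changes of 0.47, 0.64 and 0.19, none called (adjusted p = 0.364, 0.117 and 0.694). Abcc1 had no called change in either genotype, and its largest was in wild type at 72 h, log2 0.89 ± 0.26 (adjusted p = 0.0529), where both arrays were above those at 0 h. That change passed the threshold in 4 of 7 alternatives, such as quantile normalization (adjusted p = 0.0370), and in 4 of the 16 fits without a replicate, so the side it falls on depends on the processing.

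Ces1d on type A was the only member esterase with a called change between 24 and 72 h in the mutant. It fell at 72 h relative to 24 h, with a log2 change of -1.11 ± 0.16 on 101538_i_at, 2.15-fold lower (adjusted p = 0.00512), and -0.83 ± 0.16 on 101539_f_at, 1.78-fold lower (adjusted p = 0.0161). The second call was lost in 4 of 16 fits that left out a replicate, with an adjusted p up to 0.0947 without replicate 1b of the mutant at 24 h. This comparison uses no 0 h array. With only the 4 arrays compared, neither was called (adjusted p = 0.0746 and 0.103). In wild type the same comparison gave -0.66 ± 0.20 and -0.63 ± 0.20 (adjusted p = 0.165 and 0.166), with both 72 h arrays below the single 24 h array. On type C, 169079_i_at had -0.72 ± 0.29 in the mutant, not called (adjusted p = 0.192), with both 72 h arrays below both 24 h arrays. Its wild type value was -0.24 ± 0.29 (adjusted p = 0.801), with overlap. Fat also uses Ces1d, and the type A fat markers summed to 1781 to 3040 at 24 h and 2483 to 2587 at 72 h in the mutant. On the same arrays the alveolar type 2 markers summed to 86700 to 104143 and 58212 to 68132 in that order. The endothelial sums were 25865 to 29741 and 21991.5 to 23295, and the macrophage sums 17485 to 18673 and 24485 to 26320. In wild type the alveolar type 2 sum was 79529 at 24 h (n = 1) and 58534 to 60298 at 72 h. The part of these cell types in the fall was not tested. Relative to the single mutant 0 h array of type A, which stood apart, 101539_f_at had a log2 change of -0.74 ± 0.20 at 72 h in the mutant (adjusted p = 0.0219, and 0.0667 without replicate 1a of the mutant at 72 h). On 101538_i_at it was -0.57 ± 0.20 (adjusted p = 0.0707), past the threshold in 2 of 7 alternatives. Neither has a value without that array. On type C, 169079_i_at rose in the mutant by 0.87 ± 0.29 at 24 h (adjusted p = 0.0483) and 0.98 ± 0.29 at 48 h (adjusted p = 0.0373), calls that 12 and 4 of the 16 fits without a replicate lost, with an adjusted p up to 0.206 without replicate 1a of the mutant at 24 h and 0.182 without replicate 1b at 48 h. The 24 h call was also lost in 5 of 7 alternatives and the 48 h call in 1.

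Ces1f on 109158_at had, in the mutant under oxygen, log2 changes of -0.80, -0.60 and -0.69 at 24, 48 and 72 h, each ± 0.19 (adjusted p = 0.00862, 0.0420 and 0.0202). All these arrays lie under the filter value, and the probe set was tested only because of its wild type signal, so no change of Ces1f RNA in the mutant is read from these values. With a floor in place of the added value no call remained (adjusted p = 0.887 to 0.901). Leaving out a replicate ended the calls in 1, 13 and 4 of 16 fits, and at 48 h the change then ran from -0.84 to -0.36, with an adjusted p up to 0.290 without replicate 1b of the mutant at 48 h. On 109159_f_at the same changes were -0.52, -0.25 and -0.32 and none was called (adjusted p = 0.178, 0.568 and 0.452). In wild type 109158_at was highest at 24 h, with a change of 0.62 ± 0.19 that missed the threshold (adjusted p = 0.123). Neither Ces1g probe set had a called change under oxygen in either genotype.

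Counted over the 10 probe sets, the mutant calls were 4 at 24 h (3 higher, 1 lower), 4 at 48 h (3 higher, 1 lower) and 3 at 72 h (1 higher, 2 lower). Over the 7 probe sets with a mutant array above the filter value, which leaves out Ces1f and the dim Ces1g probe set, they were 3 (3 higher), 3 (3 higher) and 2 (1 higher, 1 lower). The background of these comparisons is high: of all probe sets 24.4% were called at 24 h (12.2% higher, 12.1% lower), 17.9% at 48 h (9.61% and 8.27%) and 21.5% at 72 h (11% and 10.5%). With 10 probe sets the counts are too near this background to say anything of the members as a group. At 72 h against 24 h in the mutant 2 of 10 were called, both lower, where 5.05% of all were called in either direction and 2.65% were lower. Both are probe sets of Ces1d on type A that ran alike, so the count stands for 1 gene. In wild type 0, 1 and 0 of 10 were called at 24, 48 and 72 h, where 1.72%, 6.64% (3.25% higher) and 7.83% of all probe sets were, and 0 at 72 h against 24 h (1.5% of all). At an unadjusted limma p under 0.05 these wild type counts were 3, 4, 2 and 4 of 10, where 14.9%, 20.7%, 21.5% and 13.6% of all probe sets had such a p. The medians of the 10 wild type log2 changes were 0.49, 0.36 and 0.01 at 24, 48 and 72 h, beside -0.06, -0.03 and -0.06 over all probe sets, and the mutant medians were 0.31, -0.0014 and -0.11, beside -0.03, -0.02 and -0.03.

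**Figure D4:**
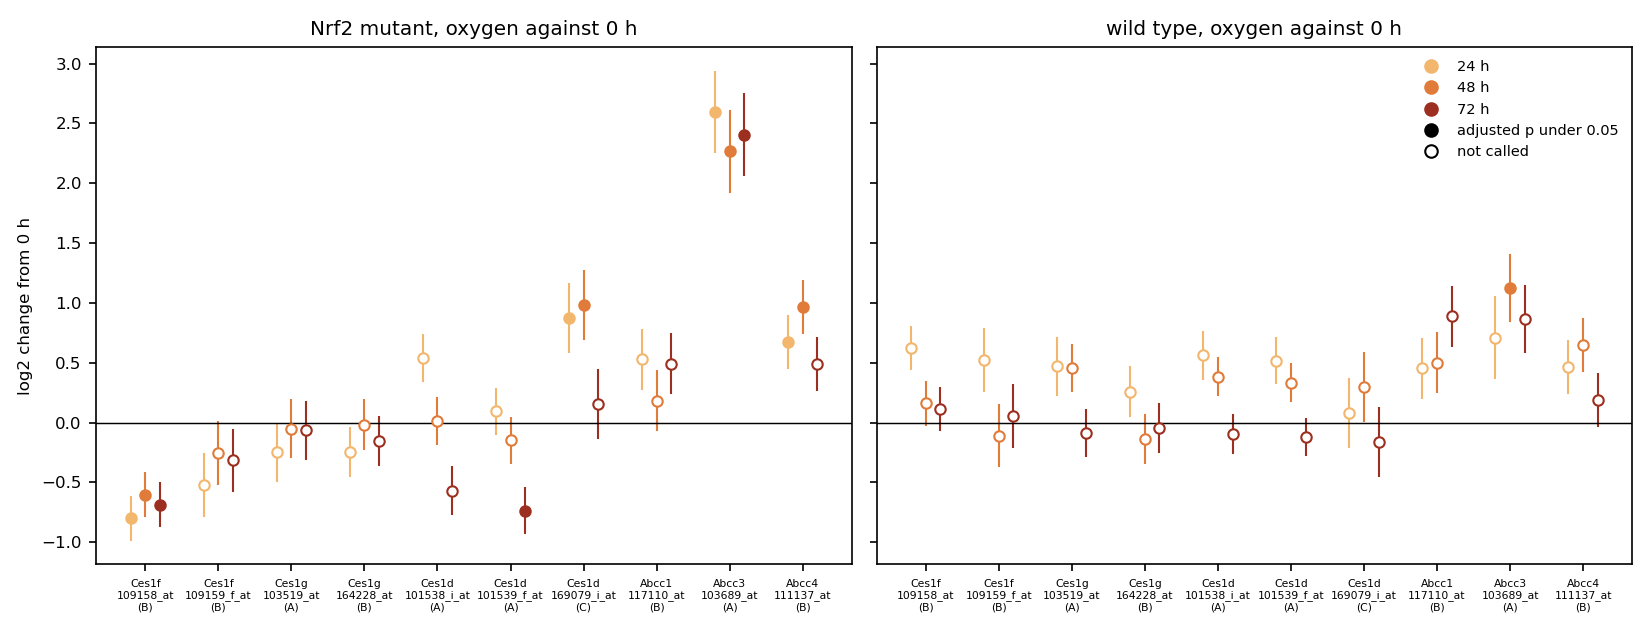
Fitted log2 change from 0 h (points, bars of 1 SE) of the 10 tested probe sets at 24, 48 and 72 h, Nrf2 mutant left and wild type right. Filled points have an adjusted p under 0.05. Abcc3 has the highest values in the mutant (2.60, 2.27 and 2.40), measured from 1 array at 0 h, and its change at 48 h is the wild type call. The filled mutant points of Ces1f rest on arrays under the filter value.

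Whether the response to oxygen differed between the genotypes was tested as the mutant change minus the wild type change. None of the 10 probe sets was called in limma at 72 h (1.36% of all probe sets) or in the F test over the 3 times (1.34%), with 3 and 2 of 10 under an unadjusted p of 0.05 (14.2% and 15.1% of all). At 48 h none was called either (0.652% of all), with 2 under an unadjusted 0.05 (11.9% of all). The values of Abcc3, none called, were 1.89 ± 0.49 at 24 h (adjusted p = 0.0823), 1.14 ± 0.45 at 48 h (adjusted p = 0.345) and 1.54 ± 0.45 at 72 h (adjusted p = 0.133). They rest on the single mutant 0 h array, and that at 24 h, which passed the threshold in 2 of 7 alternatives, also on the single wild type 24 h array. At 24 h, 1 of 10 was called, lower (1.93% of all, 1.16% lower): Ces1f on 109158_at, with -1.42 ± 0.26. That value is the genotype difference at 24 h minus that at 0 h, both of which led to the choice of Ces1f, and its mutant arrays are under the filter value, so it is a description and nothing is read from the call. Counted from 24 h in place of 0 h, the difference at 72 h was -0.35 ± 0.45 for Abcc3 (adjusted p = 0.917) and 0.62 ± 0.26 for Ces1f (adjusted p = 0.638).

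Relatives of these genes were read from lists of related enzymes and pumps. Of 31 other carboxylesterases and esterases 15 were tested, and in the mean genotype difference 2 were lower, 0 higher and 13 not called, where 1.55% of all probe sets were called and 0.812% were lower. Ces1e, the carboxylesterase between Ces1d and Ces1f on chromosome 8, had 519 to 535 at 0 h, 439 to 454 at 24 h, 378 to 433 at 48 h and 226 to 383 at 72 h in the mutant. In wild type its intensity was 882 to 892, 916 to 1049.8, 883 to 916 and 639 to 678. No mutant array reached the lowest wild type array, and the log2 difference was -0.86 ± 0.09 (adjusted p = 0.000294). It was called in all 6 alternatives that change this fit and in all 16 fits without a replicate. Pon1, a paraoxonase that splits lactones and organophosphates, was lower too (log2 difference -0.73 ± 0.13, adjusted p = 0.0207). This call was lost without replicate 1a of the mutant at 24 h or 48 h, replicate 1b of wild type at 0 h or replicate 1a of wild type at 72 h, with an adjusted p up to 0.0565. The median of the 15 was -0.12, beside -0.02 over all probe sets.

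None of 6 tested other Abcc transporters, 7 other multidrug and lipid ABC transporters and 8 glucuronidation and sulfation enzymes was called in the mean genotype difference, with medians of 0.15, -0.01 and -0.20. Under oxygen, Cftr, the chloride channel of the Abcc family (Abcc7), rose in wild type at 48 h (log2 change 0.78 ± 0.17, adjusted p = 0.0258). In the mutant its changes were 0.67 ± 0.21 at 24 h (adjusted p = 0.0434) and 0.97 ± 0.21 at 48 h (adjusted p = 0.0115), measured on type A from the single 0 h array that stood apart. It was the only one of the 6 Abcc relatives with a call against 0 h in either genotype. On its type B probe set Abca3, the lipid pump of alveolar type 2 lamellar bodies, rose at 24 h in both genotypes. The log2 changes were 1.12 ± 0.17 in the mutant (adjusted p = 0.000615) and 1.07 ± 0.17 in wild type (adjusted p = 0.00886). At 72 h against 24 h this probe set fell, with log2 changes of -1.43 ± 0.17 in the mutant (adjusted p = 0.000832) and -0.85 ± 0.17 in wild type (adjusted p = 0.0287). The type C probe set of Abca3 ran differently in the mutant, with intensities of 1426 to 1523 at 0 h and 1200 to 1554 under oxygen. These ranges hold neither a rise nor a fall of the type B size. Wild type arrays ran from 916.5 to 2483 there, over all times together. The changes are thus given for the type B probe set only. Among the esterases, the paraoxonase Pon2 had a log2 change at 72 h of -1.77 ± 0.21 in the mutant (adjusted p = 0.000316), from the same single 0 h array, and fell in wild type by 0.77 ± 0.17 on the log2 scale (adjusted p = 0.0229). Ces1e fell at 72 h in the mutant (-0.63 ± 0.18, adjusted p = 0.0255), measured from the 0 h arrays that stood apart. In wild type its change was -0.37 ± 0.18 (adjusted p = 0.256), with both 72 h arrays below both 0 h arrays. Of the 15 esterases 2, 1 and 2 were higher and 1, 3 and 4 lower in the mutant at 24, 48 and 72 h, and 0, 0 and 0 higher and 0, 1 and 3 lower in wild type. Of all probe sets 12.2%, 9.61% and 11% were higher and 12.1%, 8.27% and 10.5% lower in the mutant, and 1.72%, 6.64% and 7.83% were called in wild type in either direction, and nothing particular to the esterases is read from the counts.

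Genes whose log2 values ran most like those of a member were found by Pearson correlation over all arrays of the member's type, as a description. Ces1f ran most like Fam171b (r = 0.95), Pir (0.94) and Ces1e (0.91) over 16 arrays. Ces1d on 101539_f_at ran most like Aox1 (0.92), an aldehyde oxidase, Reep1 (0.91) and Tcf7l1 (0.90) over 14 arrays. Abcc3 ran most like Homer3 (0.93), Cotl1 (0.91) and Ehd1 (0.91) over 14 arrays, and Abcc4 most like Dhx29 (0.90), Rora (0.89) and Thrb (0.89) over 16. For the bright Ces1g probe set the nearest were Gmeb2 (0.82), Tmx3 (0.76) and Aldh1b1 (0.76), and for Abcc1 they were 1810010H24Rik (0.87), Lrrc8d (0.85) and L3mbtl3 (0.84). The arrays compared share genotype and time, so any gene that follows either can score high. Known Nrf2 targets on type A are given for comparison of the genotype difference: the log2 difference was -2.06 ± 0.10 for Gpx2, -0.93 ± 0.11 for Gclc, and -0.77 ± 0.11 and -1.38 ± 0.09 for the 2 Nqo1 probe sets on type A, which in the mutant lay under the filter value on every array. In wild type the 2 Nqo1 probe sets ran from 146 to 296 and from 127 to 452, on both sides of the filter value of 195.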

How the data were processed

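Mouse lung RNA was measured on 46 oligonucleotide arrays, 14 of type A, 16 of B and 16 of C. The authors deposited 1 linear intensity per probe set and array. How they normalized it is not given in the sources used here, and their scaling was kept. The deposited intensity was turned to log2 with a value added, the 25th percentile over the arrays of a type (78.1, 126 and 106 for A, B and C), which makes folds smaller than intensity ratios, most for dim probe sets. Control probe sets were removed, and a probe set was tested if it lay above the 40th percentile (195, 272 and 211) on at least 2 arrays. This left 26833 of 36701. Symbols came from the platform annotation, which can be old: 21868 tested probe sets had 1 symbol, 546 several and 4419 none. Groups were fitted with limma 3.58.1 in R 4.3.3, 1 fit per type and 1 mean per group, with two-sided p-values adjusted by Benjamini-Hochberg over all types and called under 0.05. A group's lone array borrows the spread of other groups. Array number limits the precision. The members and lists were chosen with earlier results of these data known. Text names every member probe set, the 3 most correlated genes per member, list genes called (at most 4 per comparison) and Nfe2l2, Gclc, Nqo1 and Gpx2, of which a selection is printed. Replicates 1a and 1b were not treated as pairs, because the labels tie no number to an animal or batch. Of 10 correlations of same-numbered deviations, -0.01 to 0.36, 6 were above 0.1. On type C the 3′ to 5′ Gapdh ratio was higher in 1b than in 1a in every group, as 1.41 and 0.995 in wild type at 24 h. On types A and B it went either way. The fitting code was tested on simulated data. Alternatives were a floor, quantile normalization, no filter, a stricter filter, only the arrays compared, eBayes with trend and robust, a replicate block, and leaving out each of 16 replicates. The mean over 24, 48 and 72 h and changes counted from 24 h were added after seeing the data.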

Additional observations from a re-analysis of the deposited data

Results flagged for a closer look

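The Ces1f change from 0 h to 24 h on 109158_at, which differed between the genotypes by log2 -1.42 ± 0.26 (mutant minus wild type), met the threshold on a difference in response but is given as a description. It is the genotype difference at 24 h minus that at 0 h, and both led to the choice of Ces1f. The probe set also passed the filter only through wild type: all 8 mutant arrays were under the filter value of 272. Its intensity was 15.0 and 23.8 at 24 h and 134 and 119.9 at 0 h in the mutant, and 908 and 853 at 24 h and 519 and 535 at 0 h in wild type. On the second Ces1f probe set, 109159_f_at, the same difference was -1.04 ± 0.38. The call on 109158_at was lost in 7 of 16 fits without a replicate and in 2 of 7 alternatives, with a floor and with only the arrays compared. The part of the mutant 0 h arrays, which stood apart, was not tested.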

How the results depend on the processing

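Of 111 results of single alternatives 96 stayed on their side of the threshold or within 1.5 times the count, 15 moved and 0 reversed. In 6 of the 111, for the F test and the mean genotype differences, taking only the arrays compared leaves the fit as it is and could not move the value. Counts of called member probe sets moved as follows. With a floor, and likewise with no filter, they were 0 in wild type at 48 h and 2 in the mutant at 24 h. With quantile normalization, with the stricter filter, with the replicate block and with trend and robust, the wild type count at 72 h was 1, which was Abcc1 each time (adjusted p = 0.0370, 0.0338, 0.0190 and 0.0377 in the same order). The stricter filter, which keeps 8 of the 10, also gave 1, Ces1f on 109158_at, in the F test of the difference in response (adjusted p = 0.0395) and a median genotype difference of -0.64, against -1.02 over all 10. With only the arrays compared, and so fewer arrays for the spread, the counts were 1, 2 and 1 in the mutant at 24, 48 and 72 h, 0 in the mutant at 72 h against 24 h and 0 in wild type at 48 h. Apart from these values the cause was not tested. The replicate block moved no other count by over 1.5 times, and of the single calls it ended that of Ces1d on 169079_i_at in the mutant at 24 h (adjusted p = 0.0526). It brought Ces1d on 101538_i_at in the mutant at 24 h past the threshold (adjusted p = 0.0276), as did trend and robust (0.0413). The stricter filter and trend and robust did so for Ces1d on 101538_i_at in the mutant at 72 h (0.0458 and 0.0361) and for the difference in response of Abcc3 at 24 h (0.0495 and 0.0452).

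Without 1 replicate, counts ran from 0 to 1 in wild type at 48 and 72 h, 1 to 4, 0 to 4 and 0 to 3 in the mutant at 24, 48 and 72 h, and 1 to 2 in the mutant at 72 h against 24 h. They stayed at 0 in wild type at 24 h and at 72 h against 24 h, and in the difference in response at 72 h and over the 3 times. The list of other esterases ran from 1 to 2, and the other 3 lists stayed at 0. The members' median genotype difference ran from -1.07 to -0.30. Its upper end, and the counts of 0 in the mutant, come from leaving out replicate 1b of the mutant at 0 h, its only type A array, which leaves 6 probe sets on types B and C. Without replicate 1b of wild type at 24 h, also its only type A array, the median was also -0.30. With the mean over 24, 48 and 72 h, an alternative chosen after seeing the data, the list counts were 2, 0, 0 and 0, as before. Quantile normalization shifted the median of all probe sets by less than 0.1 in every genotype difference, change and difference in response fitted.

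Each group has 1 or 2 arrays of a type, which limits every comparison. Signals under the filter value, as Ces1f and the dim Ces1g probe set in the mutant, carry a direction but no dependable size.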
